A study of Mus musculus with 22 samples.

Results

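The subunit genes of NuRD, a chromatin complex that joins a nucleosome remodeller to histone deacetylases, were followed through 18 ChIP-seq region lists from cultured fibroblasts of the mouse dermis, cells that make the skin's collagen matrix. ChIP-seq sequences the DNA bound by an antibody's target, and a region list holds the stretches where the authors called enrichment. The 10 genes, Chd3, Chd4, Hdac1, Hdac2, Mta1, Mta2, Mta3, Mbd2, Mbd3 and Rbbp4, were taken by name from 21887 protein-coding genes. Each gene was read as a window, the gene body plus 10 kb to each side on GRCm38, and the windows ran from 27.0 kb at Mbd3 to 138 kb at Mta3. Cells had the wildtype (WT) genotype or a knockout (KO) of Lap2alpha, a LAP2 protein of the nuclear interior that binds A-type lamins. Lamin A/C was precipitated with antibody 3A6 and with antibody E1. BRG1, the ATPase of SWI/SNF remodellers, and CHD4 itself were precipitated in both genotypes, and antibody 1H11 was used for Lap2alpha in WT. The 22 samples hold no Lap2alpha ChIP in KO. All cells were crosslinked with DSG and formaldehyde, and chromatin was sonicated for 16 or 20 cycles. Each genotype, antibody and sonication length was 1 library, so no value has a replicate of its own. Genotypes were compared over pairs of lists matched on antibody and cycles and no test was run: an exact two-sided permutation test over the 4 lamin pairs cannot give a p below 0.125, and over the 2 pairs of BRG1 or CHD4 none below 0.5. The labels do not say whether the cells were 1 clone, and these lists hold no check of the deletion, so genotypes are those of the labels.

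As background, NuRD is built on MTA proteins, which hold HDAC1 and HDAC2 and the histone-binding proteins RBBP4 and RBBP7. An MBD protein, MBD2 or MBD3, and GATAD2 proteins link this deacetylase part to CHD3 or CHD4, the ATPase that moves nucleosomes. MBD2 binds methylated DNA, and the complex is known for restraining and tuning transcription at enhancers and promoters. A-type lamins form part of the lamina under the nuclear envelope, where they contact gene-poor, silent chromatin, and a mobile pool in the nuclear interior associates with Lap2alpha.

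The lists were long but of unequal form, which bears on every value below. They held from 7283 merged regions in KO CHD4 at 20 cycles to 233769 in KO E1 at 20 cycles, and read depth is unknown because the lists hold positions without counts. Intervals of different lists that overlapped often had the same centre to the base, so positions in different lists are not independent. By these shared centres the lists fell into 3 sets, a grouping made after seeing the data. Set 1 has 11 lists, and for any pair of them 69.7 to 88.9% of the overlapping intervals shared a centre. Set 2 has 5 lists, the 4 E1 lists and KO CHD4 at 20 cycles, with 87.8 to 95.7% shared among themselves and at most 1.49% with the other lists. Set 3 has 2 lists, KO BRG1 and KO 3A6 at 20 cycles, with 81.8 and 85.0% shared between them and 29.2 to 42.3% with set 1. Matching WT with KO on antibody and cycles made 8 pairs, and in 5 of them both lists were of 1 set: BRG1, CHD4 and 3A6 at 16 cycles and E1 at both lengths. The 3 pairs across sets were BRG1, CHD4 and 3A6 at 20 cycles. The labelled cell type was checked on gene-end regions, those within 1 kb of either end of a gene. Of 10 fibroblast marker genes, 9 had a BRG1 gene-end region in all 4 BRG1 lists, against 0 of 4 keratinocyte, 0 of 3 leukocyte, 0 of 3 melanocyte and 1 of 3 endothelial markers and 33.9% of all genes. In at least 1 BRG1 list, 10 of 10 fibroblast, 2 of 4 keratinocyte, 2 of 3 leukocyte, 1 of 3 melanocyte and 3 of 3 endothelial markers had one. Single BRG1 lists had a gene-end region at 36.2 to 63.0% of all genes. The share of all genes with one in at least 1 list is not given here.

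In WT cells the windows of all 10 NuRD genes were empty of lamin A/C in each of the 4 lists. With antibody 3A6, all 10 windows had at least 1 region in a KO list. At Mta1 the only one, at 20 cycles, lay 9.71 kb from the gene body, inside the neighbouring gene Tex22. At Mbd3 the only one, at 16 cycles, lay 7.04 kb from the body, inside the neighbouring gene Uqcr11. Over gene bodies without flanks, 6 of the 10 genes had 3A6 coverage in KO at each sonication length. With E1 the KO lists held 1 region, at Mbd2. Among all protein-coding genes 71.8% had no WT lamin region in the window, and among the 13587 genes with windows as long as those of the NuRD genes the share was 78.5%. With 3A6, 55.7% of all genes had no WT region and at least 1 in either KO list. Of the NuRD genes 5, Chd3, Chd4, Hdac2, Mta3 and Mbd2, had regions in both KO lists, against 32.1% of all genes. For E1, 38.1% of all genes had a region in either KO list, against 1 of the 10. The E1 lists are all of set 2 and share almost no centres with the 3A6 lists. The part of list form in the difference between the antibodies was not tested.

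**Figure D1:**
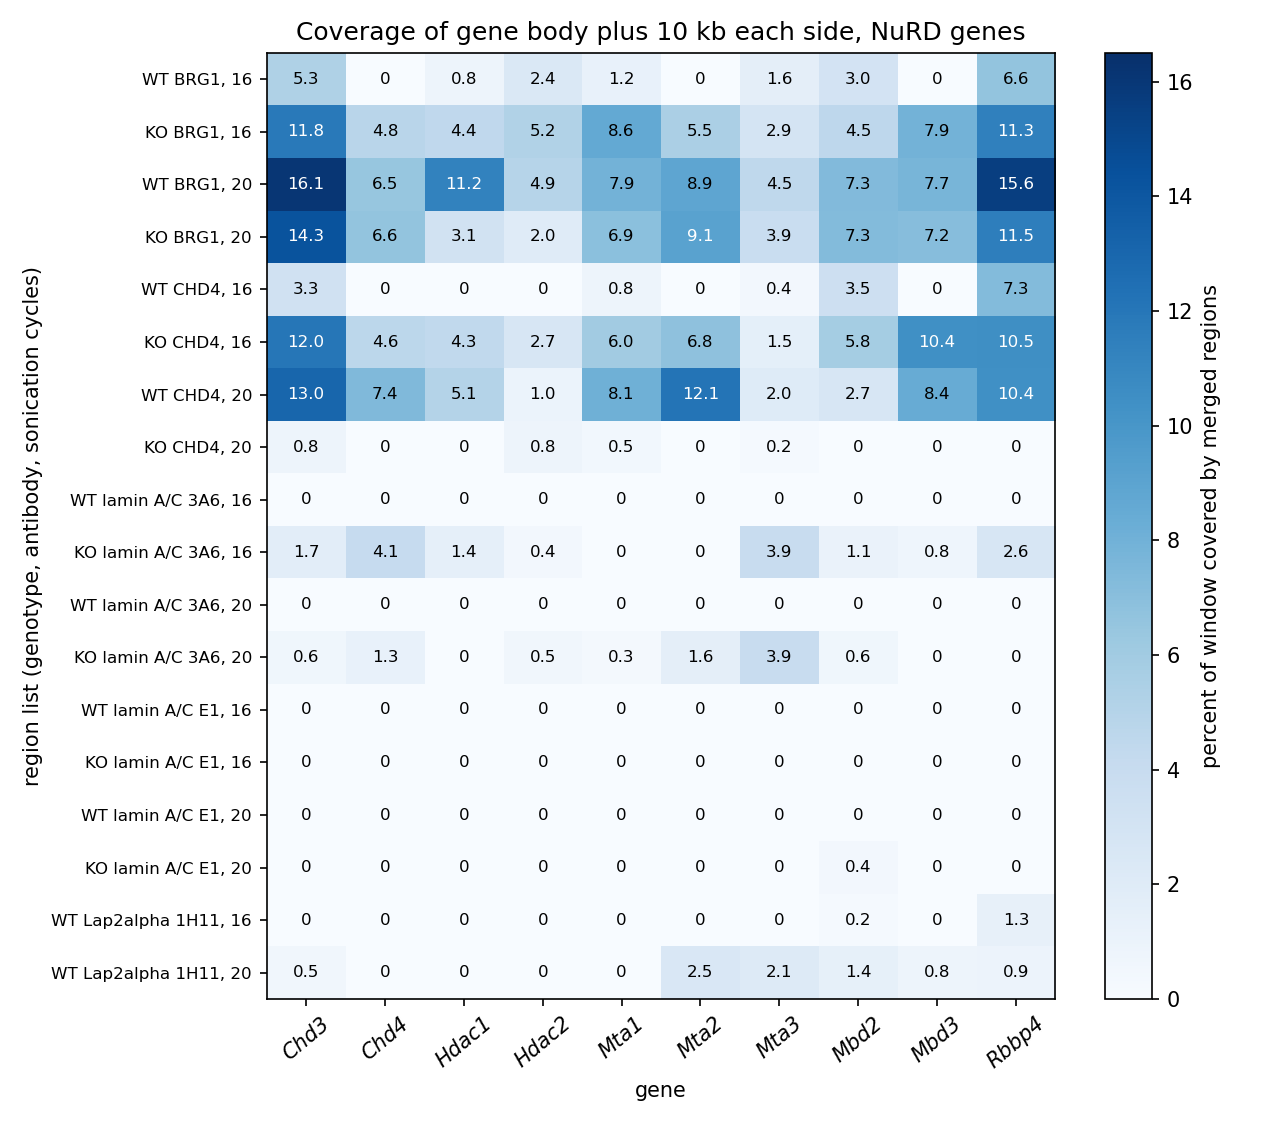
Percent of each gene's window (body plus 10 kb each side) covered by merged regions, for the 10 NuRD genes (columns) in each of the 18 lists (lines, 1 library each). The 4 WT lamin lists are 0 throughout, and the KO 3A6 list at 16 cycles reaches 4.08% at Chd4.

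The WT lamin regions lay outside these windows at varied distances. From the gene body, the nearest region of any WT lamin list was 23.4 kb away at Hdac2, 24.2 kb at Mbd2 and 26.1 kb at Mta3. It was 93.5 kb away at Mta1, 125 kb at Chd4, 231 kb at Mbd3, 239 kb at Rbbp4, 249 kb at Mta2, 448 kb at Hdac1 and 1492 kb at Chd3. The median distance was 178 kb for the NuRD genes and 95.6 kb for all protein-coding genes. By list, the medians were close for 3A6, at 182 against 173 kb for 16 cycles and 253 against 233 kb for 20 cycles, and apart for E1, at 915 against 504 kb and 718 against 436 kb. In the KO 3A6 lists the median was 0 kb for the NuRD genes at both lengths, against 0 and 2.92 kb for all genes, and the farthest bodies were Mta2 at 19.4 kb for 16 cycles and Hdac1 at 34.5 kb for 20 cycles. In the KO E1 lists the NuRD medians were 78.7 and 389 kb, against 52.9 and 113 kb for all genes.

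Of the remodeller genes, Chd4 (chromosome 6, 125095980 to 125130591) took the larger lamin A/C coverage in KO cells. Its window was 0% covered in both WT 3A6 lists, 4.08% in KO at 16 cycles and 1.28% in KO at 20 cycles. These were 8 and 3 separate regions of at most 328 bp, and the values were above those of 95.1 and 68.4% of all genes. At Chd3 (chromosome 11, 69343273 to 69369499), a CHD4 paralog used in alternative NuRD complexes, the KO values were 1.69% from 4 regions at 16 cycles and 0.584% from 1 region at 20 cycles, above 66.1 and 50.4% of all genes. So both genes were at 0 in WT and above 0 in both KO lists of this antibody, and both values were lower at 20 than at 16 cycles. At neither gene did any region of one sonication length overlap a region of the other, so the places differed.

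The deacetylase genes differed from each other. Hdac1 (chromosome 4, 129516104 to 129542646) had 1.44% coverage, above 59.5% of all genes, from 3 regions in KO 3A6 at 16 cycles and 0% at 20 cycles. Hdac2 (chromosome 10, 36974297 to 37001889) had 1 region in each KO 3A6 list, 0.395% and 0.538% of its window at 16 and 20 cycles, above 27.7 and 49.1% of all genes. These single regions were 188 and 256 bp wide and did not overlap each other.

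Among the MTA scaffold genes, the 3 paralogs differed. Mta3 (chromosome 17, 83706163 to 83823715), the longest of the 10 genes, had 20 regions in each KO 3A6 list, 3.88% of the window at 16 cycles and 3.87% at 20 cycles. Those values were above 94.3 and 89.3% of all genes, and 18 of the 20 regions at 16 cycles and 17 of 20 at 20 cycles lay in the gene body. Only 6 of the 20 regions of one sonication length overlapped a region of the other, so similar coverage came largely from different places. Mta1 (chromosome 12, 113098248 to 113137206) had 0% in KO at 16 cycles and 0.336% at 20 cycles, the latter above 43.7% of all genes. Mta2 (chromosome 19, 8941920 to 8952300) had 0% at 16 and 1.59% at 20 cycles, the latter above 73.2% of all genes. Mta1 and Mta2 thus had their lamin regions only in the list of set 3.

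**Figure D2:**
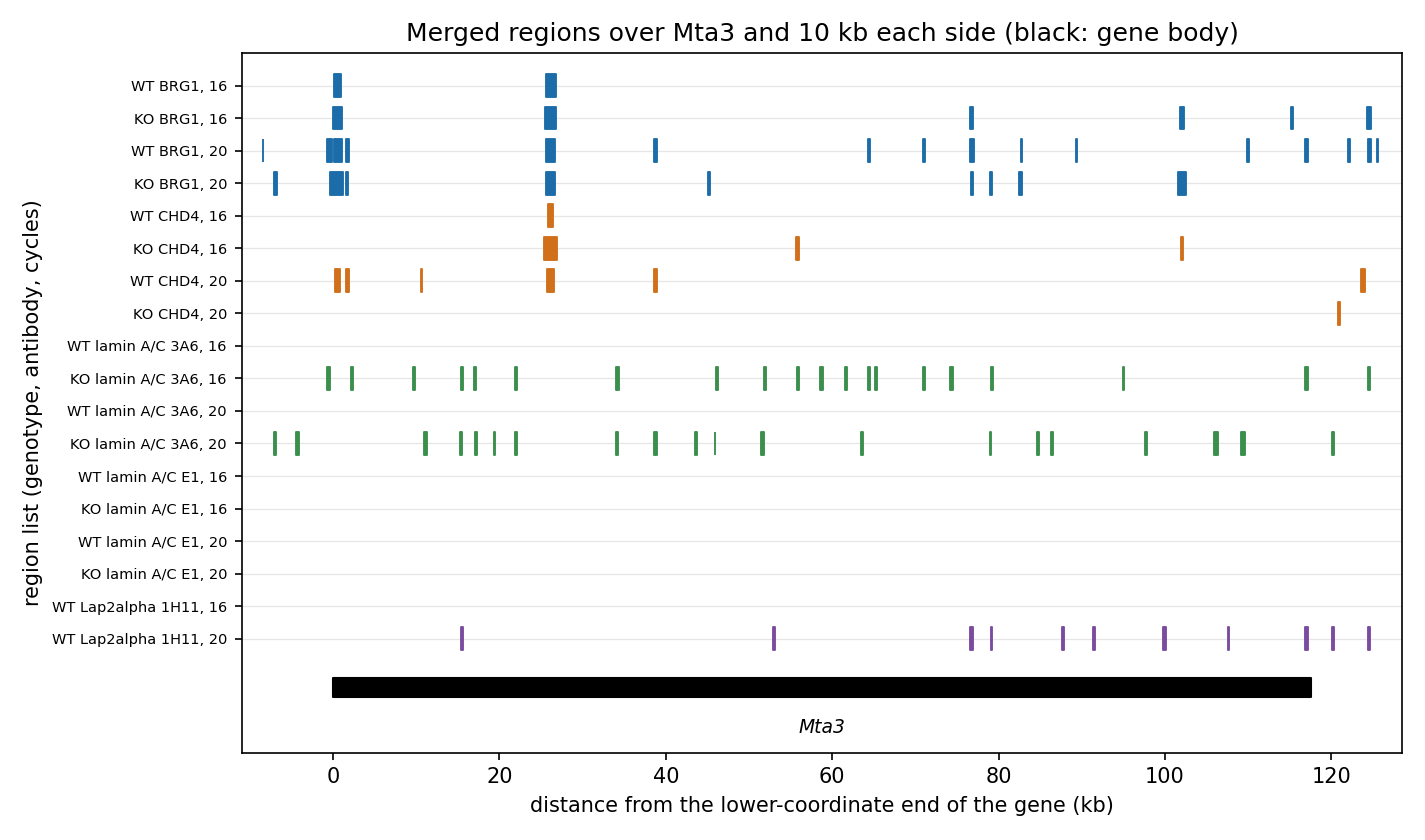
Positions of merged regions over Mta3 and 10 kb each side, in kb from the lower end of the gene; each line is 1 of the 18 lists, bars are regions (coloured by target, with an outline that widens the narrowest slightly) and the black bar is the gene body. Both KO 3A6 lists have 20 regions, mostly inside the gene body, and no WT lamin list has any.

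Mbd2 (chromosome 18, 70568225 to 70629134), which encodes the methyl-DNA reader, had 3 regions and 1.07% coverage in KO 3A6 at 16 cycles, and 2 regions and 0.603% at 20 cycles. These values were above those of 48.8 and 51.0% of all genes. Both of the 20-cycle regions overlapped 16-cycle regions. Mbd2 also had the single E1 region, 332 bp wide and 0.410% of the window in KO at 20 cycles, which overlapped no 3A6 region. Mbd3 (chromosome 10, 80392539 to 80399531), whose protein lacks the strong preference of MBD2 for methylated DNA in mammals, had 0.771% from 1 region at 16 cycles and 0% at 20 cycles. Its 16-cycle value was above that of 38.0% of all genes. Rbbp4 (chromosome 4, 129307100 to 129335370), a histone-binding WD40 protein gene, had 2.61% from 6 regions at 16 cycles and 0% at 20 cycles. Its 16-cycle value was above that of 83.1% of all genes.

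Over the 10 genes, the mean KO 3A6 coverage was 1.59% at 16 cycles and 0.880% at 20 cycles, against 0% in WT. Over all protein-coding genes the mean went from 0.375 to 1.42% in the 16-cycle pair and from 1.07 to 1.36% in the other. The means of all 4 lamin pairs, both antibodies included, gave 0.628 ± 0.760 percentage points (SD over 4 pairs, KO minus WT), from 1.24 for 3A6 alone and 0.0205 for E1 alone. This mean did not exceed the spread between pairs. Over all genes the 3A6 differences were 1.05 and 0.294 points at 16 and 20 cycles, where the 10 genes had 1.59 and 0.880. The E1 differences over all genes were 0.369 and 0.794 points, where the 10 genes had 0 and 0.0410. The KO lists were longer than their WT lists, 188132 against 86033 regions for 3A6 at 16 cycles and 226877 against 182893 at 20 cycles. When each 3A6 pair was cut to equal numbers of its widest regions, the KO lists held 28 regions in 6 NuRD windows at 16 cycles. At 20 cycles they held 24 regions in 7 windows. The WT lists, the shorter of each pair, were unchanged by the cut, so their 0 was fixed. The share of all genes with a region under this cut is not given here.

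The KO 3A6 regions in NuRD windows were narrow, with a median of 254 bp at 16 cycles and 259 bp at 20 cycles, and few sat on gene ends. At 16 cycles Chd3, Hdac1 and Mta3 had a gene-end region, 3 of 10 against 22.1% of all genes. At 20 cycles only Chd4 had one, against 17.9% of all genes. Of the 46 regions at 16 cycles, 19 overlapped a BRG1 region of some list, 41.3% against 21.4% for the whole list, and of the 30 at 20 cycles 7 did, 23.3% against 13.8%. At Rbbp4 5 of 6 and at Mta3 6 of 20 regions of the 16-cycle list lay on a BRG1 region. Regions that recurred at the other sonication length were 8 of 46 and 8 of 30, or 17.4 and 26.7%, against 19.1 and 15.8% of the whole lists.

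BRG1 had a region at every NuRD gene in KO at 16 cycles and in WT and KO at 20 cycles, against 77.1, 85.9 and 82.1% of all genes. In WT at 16 cycles 7 of the 10 had one, against 62.9%. The BRG1 coverage was higher in KO at 16 cycles and mostly lower at 20 cycles. At 16 cycles all 10 genes were higher in KO, where 70.5% of all genes were higher and 8.32% lower. At 20 cycles 2 genes, Chd4 and Mta2, were higher against 28.4% of all genes, and the other 8 were lower against 59.6%. At 16 cycles the mean over the 10 windows was 2.07% in WT against 6.71% in KO, while at 20 cycles it was 9.05 against 7.18%. The WT list at 16 cycles was the one that stood apart, with 22 regions in these windows against 53 to 76 in the other 3, and it was also the shortest BRG1 list. Its all-gene mean was 2.19%, against 4.85 to 6.41% in the others.

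Values follow in the order WT and KO at 16 cycles, then WT and KO at 20 cycles. Chd3 had the highest BRG1 coverage of the 10 in all lists but the first, at 5.29, 11.8, 16.1 and 14.3%. Chd4 was at 0, 4.79, 6.45 and 6.62%, so its 3 lists with regions were close to each other. Hdac1 was at 0.778, 4.40, 11.22 and 3.10%, high only in WT at 20 cycles. Hdac2 was at 2.36, 5.21, 4.95 and 1.97%, so the 2 genotypes changed places between the sonication lengths. Both deacetylase genes therefore went from higher to lower in KO as sonication lengthened, while Chd4 did not.

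Mta1 was at 1.164, 8.61, 7.88 and 6.90%, and Mta2 at 0, 5.52, 8.86 and 9.10%. Both were low in WT at 16 cycles and well above that in the other lists. Mta3 had the lowest BRG1 coverage of the 10 in KO at 16 and in WT at 20 cycles, at 1.57, 2.90, 4.45 and 3.86%. Mbd2 was at 2.97, 4.53, 7.29 and 7.27%, with no difference between genotypes at 20 cycles beyond 0.021 points. Mbd3 was at 0, 7.91, 7.72 and 7.15%. Rbbp4 was at 6.58, 11.3, 15.6 and 11.5%, the highest of the 10 in the WT list at 16 cycles.

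**Figure D3:**
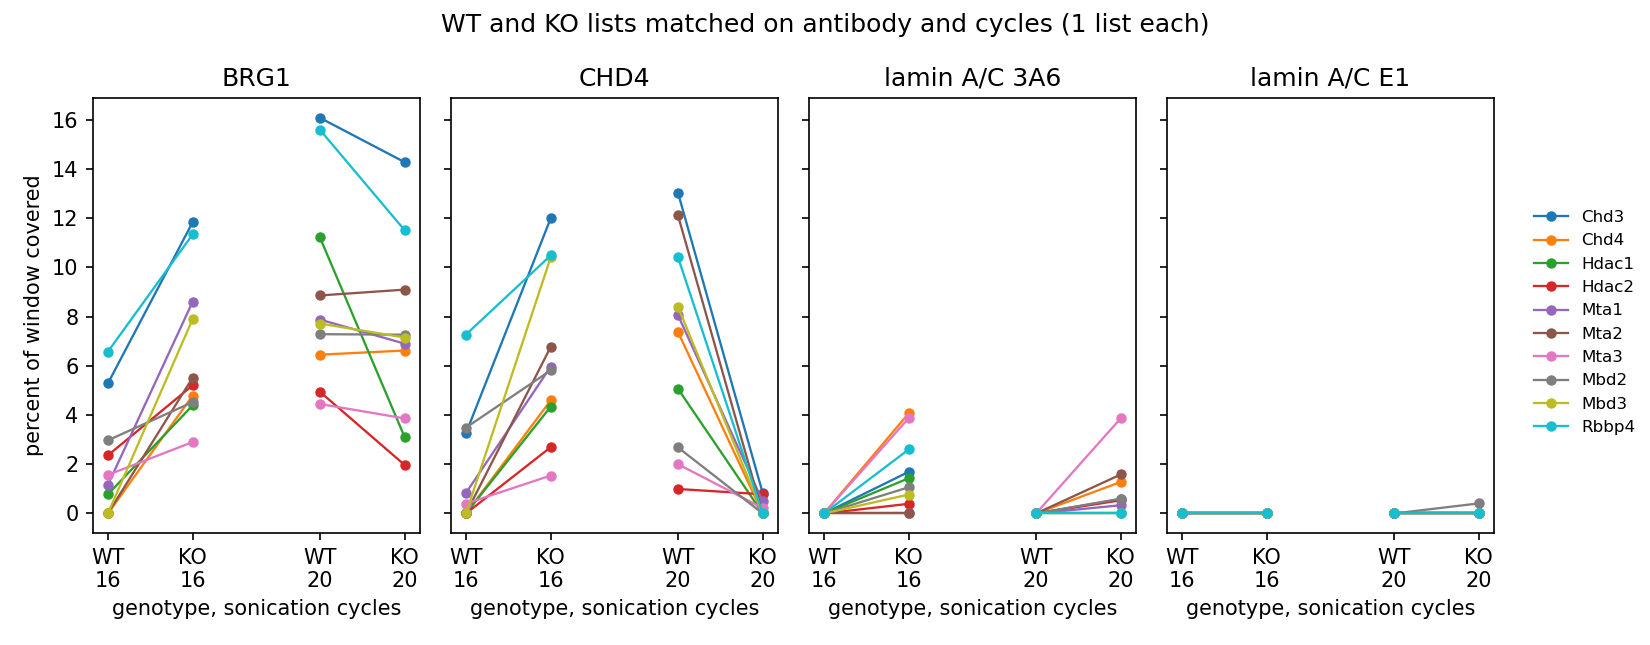
Window coverage in percent of the 10 NuRD genes for each antibody, with WT and KO lists matched on sonication cycles joined by a line (1 library per point). At 16 cycles all 10 genes are higher in KO for BRG1 and CHD4, at 20 cycles 8 of 10 are lower for BRG1 and all 10 for CHD4, and the lamin panels start at 0 in WT.

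At gene ends the BRG1 lists split the NuRD genes evenly. Hdac1, Hdac2, Mta3, Mbd2 and Rbbp4 had a gene-end region in all 4 lists, 5 of 10 against 33.9% of all genes. Chd3, Chd4, Mta1, Mta2 and Mbd3 had one in all lists but WT at 16 cycles, 5 of 10 against 15.8%. Several of the ends with regions lie close to another gene. Zbtb8os lies 162 bp from Rbbp4, Eml3 lies 338 bp from Mta2, the end of a noncoding gene lies 66 bp from an end of Mbd2, and that of another 509 bp inside an end of Chd3. A gene-end region there cannot be told apart from one of the neighbour.

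**Figure D4:**
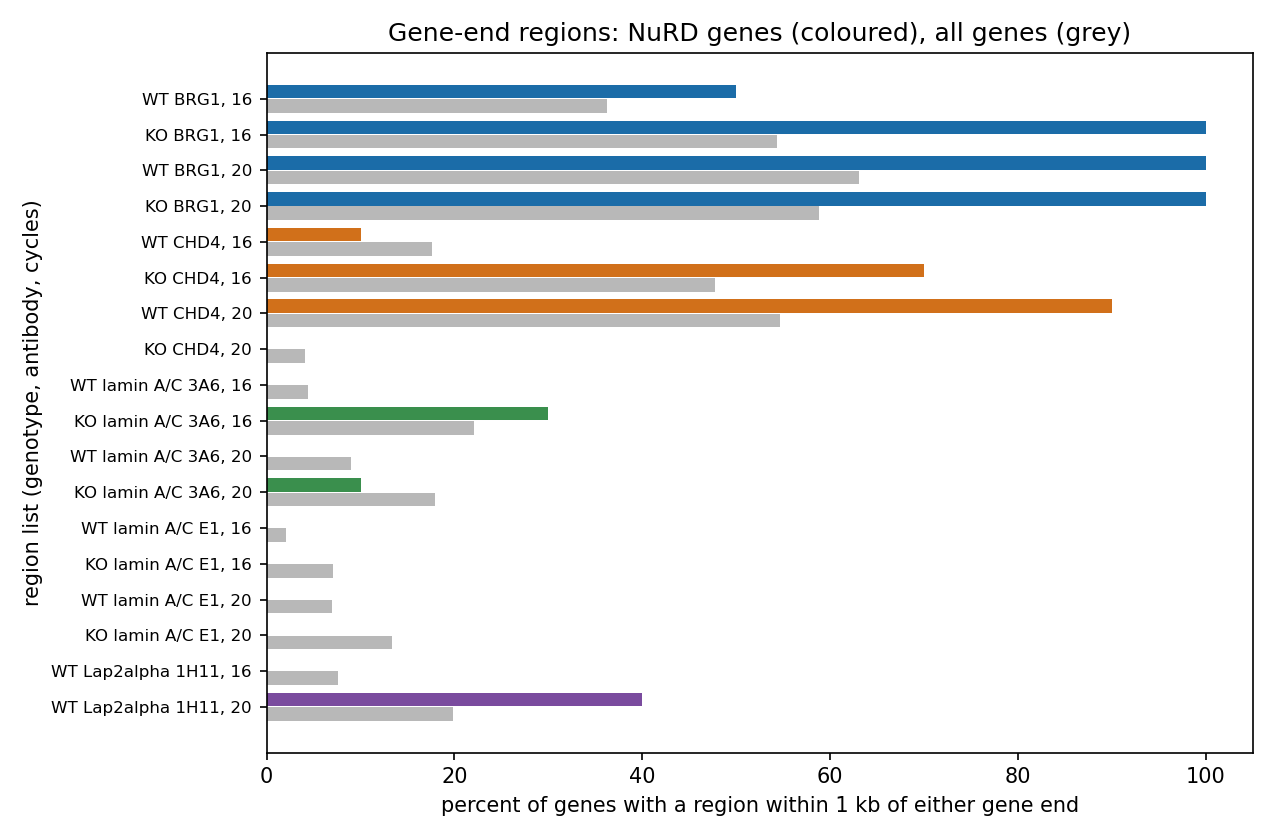
Percent of the 10 NuRD genes (coloured bars) and of all protein-coding genes (grey bars) with a region within 1 kb of either gene end, for each list (1 library each). All 10 NuRD genes have one in 3 BRG1 lists, 5 in WT BRG1 at 16 cycles, and none in the 4 WT lamin lists.

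RefSeq promoter sequences of GRCm38.p6, from 250 bases before to 50 after a gene's start, matched 6 of the 10 genes with 7 promoters, those of Rbbp4, Chd4, Hdac2, Mta1, Mta2 and Mbd3. Chd3, Hdac1, Mta3 and Mbd2 were not in the table. The 4 shown were chosen for their BRG1 coverage: Rbbp4 in all 4 lists, Chd4 in KO at 16 and WT at 20 cycles, Hdac2 in part in the same lists, and Mta2 at 20 cycles. Capitals mark the GC box GGGCGG, searched on both strands, which is bound by Sp and Klf family factors. It was found in 7 of 7 NuRD promoters, or 6 of 6 genes, and in 35.7% of 32851 promoters of this length. The 2 Chd4 promoters share 118 bases, so they are not separate sequences.
Rbbp4, chr4:129335321-129335620, minus strand: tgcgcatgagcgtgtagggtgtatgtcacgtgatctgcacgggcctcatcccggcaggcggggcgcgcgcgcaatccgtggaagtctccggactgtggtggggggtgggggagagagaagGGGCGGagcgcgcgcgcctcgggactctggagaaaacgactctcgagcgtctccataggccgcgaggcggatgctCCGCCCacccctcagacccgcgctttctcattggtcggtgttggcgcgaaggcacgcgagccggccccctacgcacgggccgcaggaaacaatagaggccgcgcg
Chd4, chr6:125095731-125096030, plus strand: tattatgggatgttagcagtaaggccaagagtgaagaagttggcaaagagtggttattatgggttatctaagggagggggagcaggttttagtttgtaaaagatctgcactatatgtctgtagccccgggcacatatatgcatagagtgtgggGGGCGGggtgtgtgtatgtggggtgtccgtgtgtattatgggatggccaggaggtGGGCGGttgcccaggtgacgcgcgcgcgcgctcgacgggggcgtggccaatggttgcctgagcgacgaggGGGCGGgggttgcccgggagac
Hdac2, chr10:36974294-36974593, plus strand: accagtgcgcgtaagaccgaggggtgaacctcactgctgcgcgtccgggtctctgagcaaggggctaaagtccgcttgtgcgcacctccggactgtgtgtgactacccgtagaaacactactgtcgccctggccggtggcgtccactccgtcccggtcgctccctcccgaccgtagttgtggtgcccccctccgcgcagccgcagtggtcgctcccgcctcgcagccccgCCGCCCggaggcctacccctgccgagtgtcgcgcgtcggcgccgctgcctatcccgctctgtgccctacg
Mta2, chr19:8941670-8941969, plus strand: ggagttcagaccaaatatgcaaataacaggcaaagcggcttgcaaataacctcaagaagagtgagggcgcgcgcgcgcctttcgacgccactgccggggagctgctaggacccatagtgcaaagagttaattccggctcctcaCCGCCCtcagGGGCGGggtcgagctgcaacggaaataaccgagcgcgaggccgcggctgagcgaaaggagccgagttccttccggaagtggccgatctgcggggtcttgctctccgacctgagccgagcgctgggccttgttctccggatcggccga

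Of the 300 bases shown for Rbbp4, the 16-cycle BRG1 lists covered 300 (WT) and 297 (KO), and the 20-cycle lists 300 (WT) and 299 (KO). It was the only one of the 7 in all 4 BRG1 lists, which was true of 14.9% of all promoters. The CHD4 lists covered 300, 300 and 96 of its bases in WT and KO at 16 cycles and WT at 20 cycles, and 0 in KO at 20 cycles. The Chd4 promoter shown was covered whole by BRG1 and by CHD4 in the same lists, KO at 16 and WT at 20 cycles. It was at 0 in WT at 16 and KO at 20 cycles. The other Chd4 promoter had 293 and 183 BRG1 bases in KO at 16 and WT at 20 cycles, and 263 and 300 CHD4 bases. The Hdac2 promoter had 242 BRG1 bases in KO at 16 and 120 in WT at 20 cycles, and 0 in the others. At 20 cycles the Mta2 promoter had 83 BRG1 bases (WT) and 265 (KO), and it was covered whole by CHD4 in WT at 20 cycles. Of those not shown, the Mbd3 promoter had 142 BRG1 bases in WT at 20 cycles alone, and the Mta1 promoter had 0 in every list. BRG1 regions touched 1 and 4 of the 7 in WT and KO at 16 cycles, against 17.9 and 32.7% of all promoters. At 20 cycles they touched 6 and 2, against 36.4 and 32.3%. No lamin A/C region of any list touched the 7 promoters, where at most 3.66% of all promoters had one in any lamin list.

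The other letters searched were fewer. CCAAT was in 4 of 7 NuRD promoters, those of 3 of 6 genes, against 37.4% of all, CGGAAG, an ETS motif, in 1 of 7 against 16.9%, and the E-box CACGTG in 1 of 7 against 7.15%. The AP-1 motif TGANTCA was in 0 of 7 against 7.81%. All were searched on both strands, and CGGAAG can share letters with the end of a GC box. G and C made up 57.0 to 81.0% of the 7 promoters, lowest at the Chd4 promoter shown and highest at Mta1, against a median of 52.7% over all promoters.

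BRG1 sites, the union of the 4 BRG1 lists, numbered 112 in the NuRD windows, and 16 of them were in all 4 lists. Those 16 had a median width of 1367 bp and each also had a CHD4 region in some list, as did 94.8% of the 43787 sites in the genome that were in all 4 BRG1 lists. Chd3 held 5 of them, Rbbp4 3, Mbd2 3, Mta3 2, and Hdac1, Hdac2 and Mta1 1 each, while Chd4, Mta2 and Mbd3 held 0. The widest, 3688 bp at chr11:69364432-69368119 in the body of Chd3, was the only one in all 4 CHD4 lists. Another of 1913 bp at chr4:129334450-129336362 lay over the start of Rbbp4, and another of 1437 bp at chr10:36974352-36975788 over the start of Hdac2. KO 3A6 regions overlapped 5 of the 16, and 22.5% of such sites in the genome. WT 3A6 regions overlapped 2.71% of such sites in the genome. Their overlap with the 16 was fixed at 0, since these windows held no WT lamin region.

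**Figure D5:**
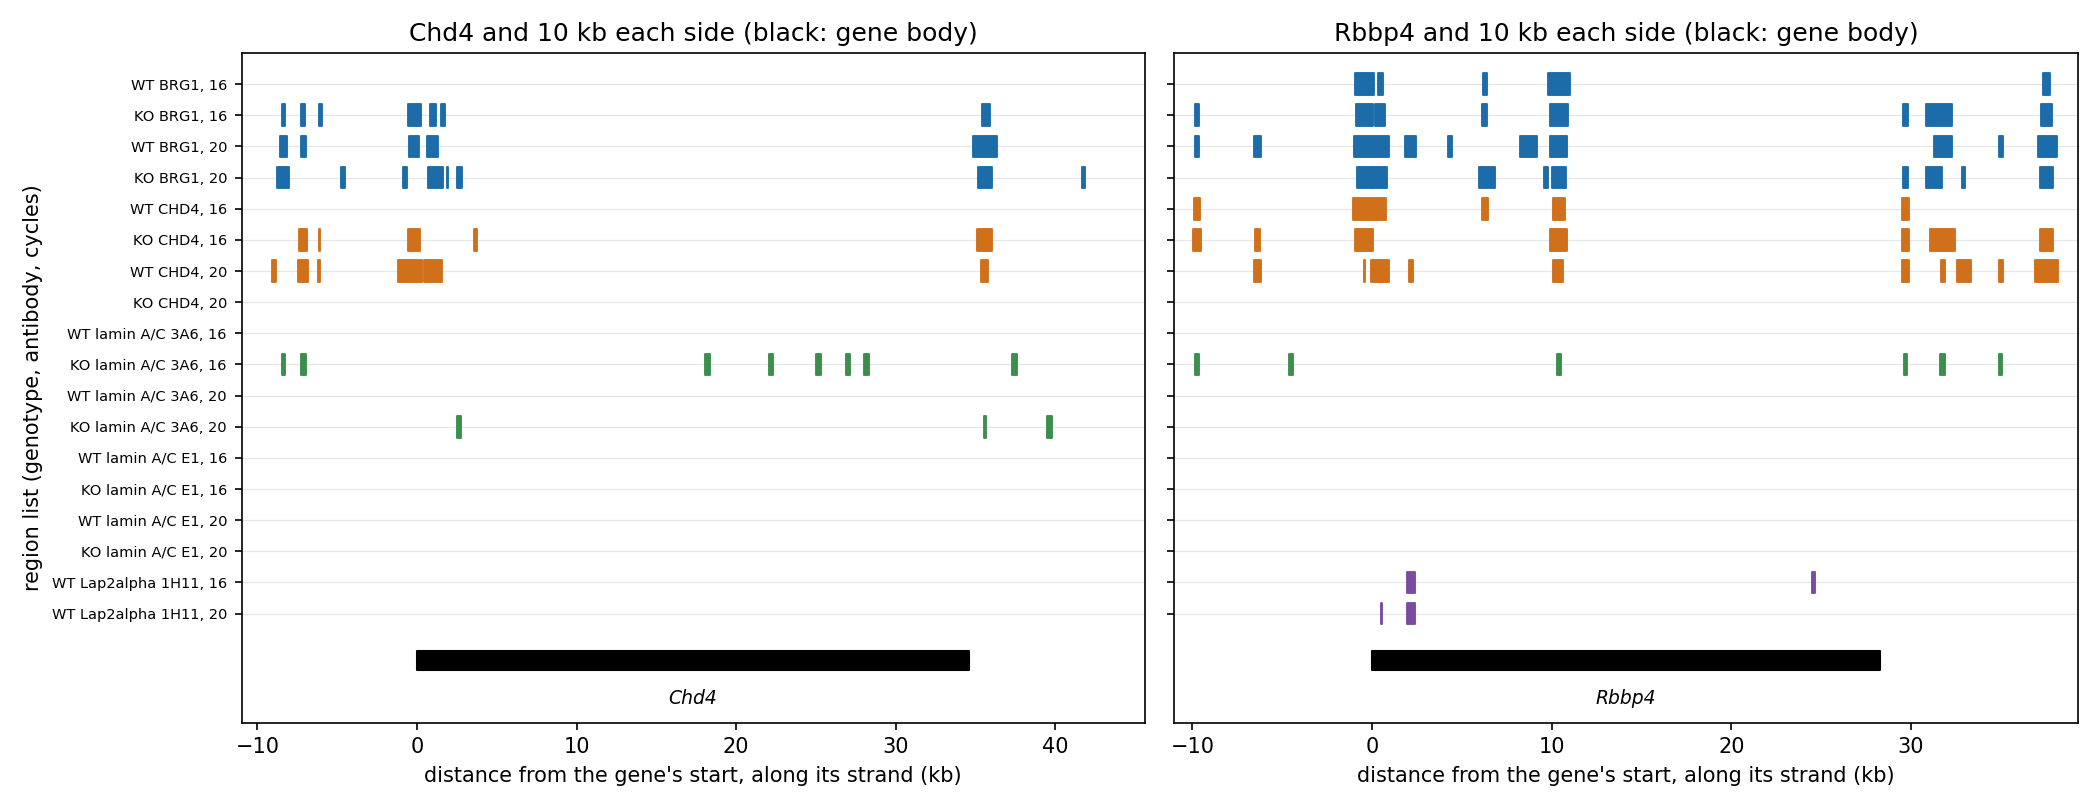
Positions of merged regions over Chd4 and Rbbp4 with 10 kb each side, in kb from the gene's start along its strand; each line is 1 of the 18 lists, bars are regions (coloured by target, with a thin outline) and the black bar is the gene body. At Rbbp4 all 4 BRG1 lists have a region over the start, and at Chd4 the WT BRG1 list at 16 cycles has none.

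CHD4 itself lay over the genes of its own complex, with higher coverage in KO at 16 cycles and nearly none in KO at 20 cycles. All 10 windows held a CHD4 region in KO at 16 and WT at 20 cycles, against 73.6 and 76.9% of all genes. In WT at 16 and KO at 20 cycles 5 and 4 did, against 47.1 and 19.9%. At 16 cycles all 10 genes were higher in KO, against 68.1% of all genes, and 0 were lower, against 8.06%. At 20 cycles all 10 were lower in KO, against 76.5%, and 0 were higher, against 1.07%. With each pair cut to as many of its widest regions as the shorter list holds, that count ended, at 3 higher, 3 lower and 4 equal, and the mean difference went from -6.79 to -1.19 points. The mean was 1.53% (WT) against 6.46% (KO) at 16 cycles, and 7.02 against 0.232% at 20 cycles. The KO list at 20 cycles held 7283 regions against 109769 in WT, and it is the CHD4 list of set 2. The part of list form and list length in the low KO values at 20 cycles was not tested.

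Again in the order WT and KO at 16 cycles, then WT and KO at 20 cycles, Chd3 was at 3.26, 12.0, 13.0 and 0.826%. Chd4, the gene of the precipitated protein, was at 0, 4.60, 7.38 and 0%. Both remodeller genes were thus high in KO at 16 and WT at 20 cycles and low in the other 2 lists. Hdac1 was at 0, 4.34, 5.07 and 0%, the same order. Hdac2 was at 0, 2.70, 0.996 and 0.782%, with little difference at 20 cycles.

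Mta1 was at 0.831, 5.97, 8.06 and 0.488%, and Mta2, which had the largest WT value at 20 cycles after Chd3, at 0, 6.77, 12.1 and 0%. Mta3 stayed low throughout, at 0.401, 1.54, 2.01 and 0.221%. Mbd2 was at 3.49, 5.82, 2.69 and 0%, the only member lower in WT at 20 than at 16 cycles. Mbd3 was at 0, 10.4, 8.41 and 0%, and Rbbp4 at 7.27, 10.5, 10.4 and 0%, so Rbbp4 was the highest in WT at 16 cycles for CHD4 as for BRG1. Both KO at 16 and WT at 20 cycles had a CHD4 gene-end region at 7 genes, Chd4, Hdac1, Hdac2, Mta1, Mta2, Mbd2 and Rbbp4, against 43.5% of all genes.

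Within the windows of the 10 genes, CHD4 regions lay largely on BRG1 regions. Of the CHD4 regions, 12 of 14 in WT and 39 of 49 in KO at 16 cycles overlapped a BRG1 region of some list, and 51 of 65 in WT at 20 cycles did. As shares these were 85.7, 79.6 and 78.5%, near the 80.5, 82.9 and 71.2% of the whole lists. In KO at 20 cycles, the CHD4 list of set 2, 1 of 4 did, against 58.4% of the whole list.

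Without the flanks, each pair's mean over gene bodies kept its direction, but the BRG1 difference at 20 cycles was larger. At 16 cycles the mean BRG1 body coverage was 2.00% in WT against 5.46% in KO, with 9 genes higher, and at 20 cycles it was 9.70 against 5.89%, with 9 genes lower. For CHD4 the body means of WT against KO were 1.43 against 4.60% at 16 cycles, then 5.64 against 0.354% at 20. At 16 cycles 8 genes were higher in KO for CHD4, 1 was lower and 1 equal, and at 20 cycles all 10 were lower. The shares of all genes beside these body counts of BRG1 and CHD4 are not given here. Over both pairs the mean window difference, KO minus WT, was 1.38 ± 4.60 points for BRG1 and -0.925 ± 8.29 points for CHD4 (SD over 2 pairs), so neither exceeded the spread between pairs. Over gene bodies alone the BRG1 mean of both pairs turned negative, at -0.174 points.

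Lap2alpha, mapped in WT cells, had regions at 2 NuRD genes at 16 cycles and at 6 at 20 cycles, and over all genes the share also went from 39.4% to 71.5%. At 16 cycles Mbd2 had 0.245% and Rbbp4 1.33% coverage and the other 8 had 0%. At 20 cycles the values were 0.528% at Chd3, 2.49% at Mta2, 2.095% at Mta3, 1.39% at Mbd2, 0.800% at Mbd3 and 0.916% at Rbbp4, and 0% at Chd4, Hdac1, Hdac2 and Mta1. Gene-end regions at 20 cycles were at Mta2, Mta3, Mbd3 and Rbbp4, 4 of 10 against 19.9%. Neither deacetylase gene had a Lap2alpha region in either list.

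At Mta3 the Lap2alpha and KO lamin regions met. Of its 11 Lap2alpha regions at 20 cycles, 5 overlapped a KO 3A6 region, and each of the 5 had the same centre as one to the base. Shared centres are common to these lists. Of all overlapping intervals of this Lap2alpha list, 86.8% shared a centre with KO 3A6 at 16 cycles and 42.3% at 20 cycles. An example is the Lap2alpha region at chr17:83721520-83721801, inside the KO 3A6 region of 16 cycles at chr17:83721497-83721824. No other NuRD gene had such an overlap, so it was 5 of 22 Lap2alpha regions in the windows, 22.7% against 27.6% over the whole list. WT 3A6 regions overlapped 23.6% of that whole list. Their overlap with the 22 was fixed at 0, since these windows held no WT lamin region.

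Related genes, in lists chosen with earlier results of these data known, gave the setting. Of 5 other NuRD subunit genes, Gatad2a, Gatad2b, Rbbp7, Cdk2ap1 and Chd5, 5 were higher in KO for BRG1 and for CHD4 at 16 cycles, against 70.5 and 68.1% of all genes. At 20 cycles 4 were lower for BRG1 and 5 for CHD4, against 59.6 and 76.5%. Of the 5, 3 had no WT lamin region with either antibody, against 71.8% of all genes, and 2 were higher in KO in both 3A6 pairs, against 44.6%. The linker gene Gatad2b went from 0 to 1.52% at 16 cycles and from 0 to 0.228% at 20 cycles with 3A6, and Cdk2ap1 from 0 to 1.03% and from 0 to 0.973%. Of 10 genes of other class I deacetylase complexes, 7 were higher in KO in both 3A6 pairs, and of the 10 NuRD genes 5. Ncor1, a corepressor that works with HDAC3, went from 0 to 3.41% and from 0 to 0.448%. Of 5 other methyl-binding genes 1, Mbd5, was higher in KO in both 3A6 pairs, and the median difference of the 5 was 2.14 points at 16 cycles and 0 at 20 cycles. Mbd5 went from 0 to 5.24% and from 0 to 2.37% with 3A6, and from 0 to 0.329% and from 0 to 0.0620% with E1.

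Factors known to bind NuRD had lamin A/C in both antibodies at some genes. Of 9 such genes, 3, Sall4, Ikzf1 and Bcl11a, were higher in KO in both E1 pairs, where 18.3% of all genes were and 0 of the 10 NuRD genes. Sall4, a zinc finger factor of stem cells, went from 0 to 1.47% at 16 cycles and from 0 to 10.8% at 20 cycles with E1. With 3A6 it went from 0 to 3.23% and from 1.67 to 4.54%. Ikzf1, a lymphoid factor, went from 0 to 1.86% and from 3.24 to 6.05% with E1, and Bcl11a from 0 to 0.378% and from 2.39 to 3.96%. Median differences over the 9 genes were 1.08 and 0.363 points for the 3A6 pairs and 0 for the E1 pairs, against 0.902, 0.138 and 0 over all genes. Medians of the 10 NuRD genes were 1.25 and 0.561 points for 3A6 and 0 for E1.

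Across the 18 lists, the coverage of the NuRD genes moved much alike, with a median Pearson r of 0.830 over 45 pairs of genes. These values are a description, since all genes share the lists and their lengths. The most alike were Chd3 and Rbbp4 at 0.971, Chd3 and Mta1 at 0.970, and Mta1 and Mbd3 at 0.954. The least alike all involved Mta3, with Mbd3 at 0.539, Mta1 at 0.581 and Mta2 at 0.598. Mta3 was also the member with the most regions of KO 3A6, 20 in each list, and of Lap2alpha at 20 cycles, 11.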

How the data were processed

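Region lists of 18 ChIP-seq libraries were used out of 22 samples, grouped by the sample titles into genotype, antibody and sonication cycles with 1 library per group; the 4 input samples were not analysed here. Each list, as the authors deposited it, has 3 columns of positions (chromosome, start, end), with no height, fold or significance. The submitters' processing notes give GRCm38 as the build and name MACS2 2.1.4, HOMER 4.11.1, bedtools, deepTools and SAMtools. What each tool did, and the threshold, control and any pooling, is not given in the sources used here.

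Intervals of width 0 were left out and overlapping intervals, found in 7 lists, were merged. For 21887 protein-coding RefSeq genes (GRCm38.p6) the percent of the body plus 10 kb each side covered by regions, the number of regions, and regions within 1 kb of either gene end were computed with Python 3.11.15, NumPy 2.4.6 and pandas 2.3.3. Overlap meant at least 1 bp. The table gives no strand and no exons. Functions were tested on simulated intervals, where 600 of 600 windows were recovered exactly. KO minus WT was taken within antibody and cycles, with no test and no p-value, and read depth is unknown. A longer list covers more, so coverage is not an amount of protein.

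The 10 genes and all other gene lists were chosen with earlier results of these data known. All 10 are described; up to 4 genes of each other list that differed one way in both pairs of an antibody, the largest mean differences first, could be named. The 3 gene pairs with the highest and lowest Pearson r were named. Alternatives were other flanks and gene-end sizes, equal numbers of the widest regions, a smallest width, 200 bp at region centres, each length or antibody alone, and leaving out a member or the 3A6 pair at 16 cycles. The pairs whose lists share centres and the genes of like window length were added after seeing the data.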

Additional observations from a re-analysis of the deposited data

Results flagged for a closer look

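The KO minus WT difference in BRG1 and CHD4 coverage had opposite signs at the 2 sonication lengths for many NuRD genes. This was seen by comparing single libraries, and the difference was not tested. Values below are the 16-cycle difference minus the 20-cycle difference, in percentage points of window coverage.

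For BRG1 the mean over the 10 genes differed by 6.51 points. Among single genes the gap was 8.36 at Chd3, 11.7 at Hdac1 and 5.83 at Hdac2. It was 8.43 at Mta1, 1.92 at Mta3, 1.57 at Mbd2, 8.48 at Mbd3 and 8.86 at Rbbp4. Chd4 and Mta2 were higher in KO at both lengths. Of all protein-coding genes, 46.1% were likewise higher in KO at 16 and lower at 20 cycles, against 8 of the 10.

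For CHD4 the mean differed by 11.7 points, and all 10 genes changed sign, as did 64.4% of all genes in the same direction. The mean over all genes also changed sign, from 2.69 to -4.41 points for CHD4 and from 2.66 to -1.01 for BRG1. The remodeller and deacetylase genes differed by 21.0 at Chd3, 12.0 at Chd4, 9.41 at Hdac1 and 2.91 at Hdac2. The MTA genes differed by 12.7 at Mta1, 18.9 at Mta2 and 2.93 at Mta3. The remaining genes differed by 5.01 at Mbd2, 18.8 at Mbd3 and 13.6 at Rbbp4. For both antibodies the 16-cycle pair is of 1 set of lists and the 20-cycle pair is not, and the part of this in the change of sign was not tested.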

How the results depend on the processing

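Of 58 alternative values, 51 kept their direction and differed by less than the spread between pairs or, for counts, stayed near the reported count, 2 counts moved and 5 means reversed. Of the 51, 21 were of the lamin coverage difference, whose direction was largely fixed by the empty WT windows. For BRG1 and CHD4, 1 pair alone always lies within the SD of 2 pairs from their mean, so only its direction could change. Their 16-cycle pair was counted again as the pair whose lists share centres. That repeated value kept direction for BRG1, at 4.63 points, and reversed for CHD4. The BRG1 mean of 1.38 points reversed to -0.174 over gene bodies with no flank and to -1.87 with 20 cycles alone. The CHD4 mean of -0.925 reversed to 1.55 with equal numbers of the widest regions, and to 4.94 with 16 cycles alone, which is also the only CHD4 pair whose lists share centres. BRG1 gene-end regions in KO went from 20 to 13 of 20 at 500 bp, and Lap2alpha gene-end regions from 4 to 2 of 20. With 200 bp at region centres, BRG1 at 20 cycles was higher in 5 and lower in 4 genes in place of 2 and 8, and with equal lists CHD4 at 20 cycles was higher in 3 and lower in 3. The lamin mean of 0.628 stayed positive in every alternative run, from 0.0205 with E1 alone to 1.24 with 3A6 alone. With no WT lamin region in any window it could not fall below 0, so its direction was fixed by construction. Only the 25 kb flank could bring in WT regions, and there the mean was 0.566. It was 0.184 with regions of at least 300 bp, 0.307 without the 3A6 pair at 16 cycles, 0.545 over pairs whose lists share centres, and 0.483 to 0.689 without each gene in turn. Beyond what each alternative changes by its construction, the cause was not tested. No paired analysis was possible because the labels give no shared replicate numbers to use as a block; lists were matched on antibody and cycles alone. Depth is unknown, so a window with no region may hold signal below the authors' threshold.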
